A study of Mus musculus with 8 samples.

Results

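The 9 genes described here encode secreted proteoglycans of the extracellular matrix: the small leucine-rich proteoglycans and relatives Dcn, Bgn, Aspn, Lum, Fmod, Prelp and Ogn, and the large hyaluronan-binding proteoglycans Vcan and Acan. They were chosen by name from this family, with earlier results of these data known. Matched by symbol to Ensembl gene identifiers, they make up 9 of the 38355 genes in the count tables. The measurements are RNA sequencing counts from 8 whole mouse colon tumours, 1 per mouse, so each sample is a separate animal. Of these, 4 came from Trp53ΔIECAktE17K mice and 4 from Trp53ΔIEC mice, and all 8 mice had received azoxymethane, a carcinogen used to induce colon tumours. The suffix ΔIEC stands for deletion in the epithelium of the intestine, and E17K for an amino acid change that makes AKT, a growth-promoting kinase, active. Both groups therefore carried the epithelial Trp53 deletion, and they differed in the AktE17K allele. The labels give neither the Cre driver nor the ages of the mice, and a whole tumour holds epithelium, stroma and blood cells together.

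Proteoglycans are core proteins that carry glycosaminoglycan chains. Decorin, biglycan and asporin bind collagen and, in other settings, growth factors of the TGF-beta family, while lumican, fibromodulin and PRELP bind fibrillar collagen and shape how its fibrils assemble. Versican and aggrecan hang on hyaluronan through an N-terminal domain, and versican is common in the loose stroma of tumours, whereas aggrecan is best known from cartilage. In the colon most of these genes are transcribed by fibroblasts and other stromal cells rather than by epithelium.

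The members lie in a few clusters on the mouse genome (GRCm38, GENCODE M21). Dcn lies on chromosome 10 at 97479609 to 97518143 and Lum follows on the same strand after 46985 bases, at 97565128 to 97572703. On chromosome 13, Aspn at 49544443 to 49567565 and Ogn at 49608046 to 49624501 stand 40481 bases apart on the plus strand with Omd between them, and both lie within Cenpp on the opposite strand. Prelp, at 133910304 to 133921414 on the minus strand of chromosome 1, is 115840 bases from Fmod at 134037254 to 134048277 on the plus strand. Bgn is on the X chromosome at 73483602 to 73495933, Vcan on the minus strand of chromosome 13 at 89655312 to 89742509, and Acan on chromosome 7 at 79053483 to 79115099. Counts are over the exons of a gene, and the library kit does not record the strand. Prelp shares 350 exon bases (9.68% of its exon length) with the antisense gene Gm15851, so reads from these bases cannot be assigned to either strand, whereas Aspn shares 7 exon bases with Cenpp and Ogn shares 0.

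The upstream sequences of 5 members are shown because Bgn, Vcan, Fmod and Aspn are the genes with the larger called differences below and Ogn is the neighbour of Aspn and was not called. Each is the 250 bases before the annotated start in the RefSeq promoter table for GRCm38.p6, 5′ to 3′ on the gene's own strand. Capitals mark exact matches, on either strand, to TATAAA (core promoter), TGANTCA (AP-1), CAGAC (SMAD), GGAATG (TEAD), GGGCGG (GC box), TGTGGT (RUNX) or the CArG box. The Bgn window is chrX:73483351-73483600 (plus strand), Vcan chr13:89742513-89742762 (minus strand), Fmod chr1:134037004-134037253 (plus strand), Aspn chr13:49544193-49544442 (plus strand) and Ogn chr13:49607765-49608014 (plus strand), the last ending before a RefSeq start that lies upstream of the GENCODE start.
Bgn: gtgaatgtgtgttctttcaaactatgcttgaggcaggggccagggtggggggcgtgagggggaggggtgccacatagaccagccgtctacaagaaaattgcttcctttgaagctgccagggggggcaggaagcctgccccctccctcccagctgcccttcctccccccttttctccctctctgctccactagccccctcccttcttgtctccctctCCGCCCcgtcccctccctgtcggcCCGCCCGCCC
Vcan: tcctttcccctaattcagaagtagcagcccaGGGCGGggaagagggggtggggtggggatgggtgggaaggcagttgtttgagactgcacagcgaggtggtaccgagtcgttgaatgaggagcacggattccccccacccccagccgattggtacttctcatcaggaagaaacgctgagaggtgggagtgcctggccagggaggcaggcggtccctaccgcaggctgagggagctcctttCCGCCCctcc
Fmod: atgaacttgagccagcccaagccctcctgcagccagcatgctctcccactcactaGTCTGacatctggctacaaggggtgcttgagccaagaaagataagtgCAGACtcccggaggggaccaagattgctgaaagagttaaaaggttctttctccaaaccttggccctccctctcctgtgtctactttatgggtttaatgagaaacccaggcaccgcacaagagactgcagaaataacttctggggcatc
Aspn: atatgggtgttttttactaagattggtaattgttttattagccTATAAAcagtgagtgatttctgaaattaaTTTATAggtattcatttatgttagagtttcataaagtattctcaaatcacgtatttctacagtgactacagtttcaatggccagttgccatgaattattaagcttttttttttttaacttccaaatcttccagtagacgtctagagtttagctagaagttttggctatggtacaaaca
Ogn: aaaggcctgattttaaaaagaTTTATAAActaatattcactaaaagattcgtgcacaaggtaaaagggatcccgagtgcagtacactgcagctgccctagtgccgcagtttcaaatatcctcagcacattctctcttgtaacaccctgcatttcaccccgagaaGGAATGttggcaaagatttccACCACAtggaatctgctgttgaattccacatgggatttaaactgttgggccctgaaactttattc

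None of the motifs was held by all 5 windows, and their base composition ranged widely. GC content was 64.4% for Bgn and 62.4% for Vcan, 51.2% for Fmod, 42.0% for Ogn and 30.0% for Aspn, against a median of 52.4% over the 32851 windows of the table. Bgn held 3 GC boxes, a pair of which overlap, and Vcan held 2, and 32.74% of all windows hold at least 1. Fmod held 2 CAGAC matches, a short motif present in 42.19% of windows. Aspn and Ogn each held 2 TATAAA matches, present in 12.37% of windows, but these began 178 or more bases before the start in Aspn and 227 or more in Ogn. The pair in Ogn overlap each other. Ogn also held 1 TEAD match (12.64% of windows) and 1 RUNX match (14.05%), and none of the 5 windows held an AP-1 match (6.75%) or a CArG box (1.47%). Of the 9 members 7 have an entry in the table, and Dcn and Lum do not.

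Libraries held 18572180 to 26268547 reads assigned to genes. Levels are given as CPM, reads of a gene relative to all assigned reads of the library after TMM scaling. The genes named in the genotypes were read in all 8 tumours: Trp53 had 24.8, 29.5, 37.1 and 24.8 CPM in Trp53ΔIECAktE17K and 25.8, 25.2, 24.2 and 20.8 CPM in Trp53ΔIEC tumours, and Akt1 had 338.2 to 409.6 CPM in Trp53ΔIECAktE17K and 383.0 to 430.2 CPM in Trp53ΔIEC tumours. Gene totals over whole tumours show neither an epithelial deletion nor a point substitution, so these values check no allele. The colon epithelium markers Epcam (1101 to 1890 CPM in Trp53ΔIECAktE17K and 2062 to 2507 CPM in Trp53ΔIEC tumours) and Vil1 (117.7 to 517.3 CPM in Trp53ΔIECAktE17K and 521.2 to 704.1 CPM in Trp53ΔIEC tumours) were present in every tumour. Krt5, a squamous keratin, had 4606, 121.5, 2.35 and 629.9 CPM in Trp53ΔIECAktE17K tumours, against 0.0465 to 0.714 CPM in Trp53ΔIEC tumours. The sample titles carry the letter A for Trp53ΔIECAktE17K replicates 1 and 2 and the letter B for the other 6 tumours, and its meaning is not given. The codes under which the counts were deposited instead give A to all Trp53ΔIECAktE17K tumours, so the labels disagree. The letter used below is that of the titles.

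Setting the genotypes side by side shows what differs between tumours with and without the AktE17K allele where epithelial Trp53 is deleted in both. Because the title letter A occurs only in Trp53ΔIECAktE17K replicates 1 and 2, the allele and the letter cannot be fully told apart. The series title places the comparison in a model of the mesenchymal colorectal cancer subtype. Of the 9 proteoglycan genes, 5 were higher in the Trp53ΔIECAktE17K tumours by edgeR's quasi-likelihood test at a Benjamini-Hochberg adjusted p under 0.05: Dcn, Bgn, Aspn, Fmod and Vcan. None was called lower. All 9 passed the filter on low counts, and over all 16539 genes tested 3.44% were called higher and 0.756% lower, or 4.2% in either direction. In the same 5 genes every Trp53ΔIECAktE17K tumour lay above every Trp53ΔIEC tumour, which held for 8.34% of all genes tested. At an unadjusted p under 0.05, 7 members passed, and the share of all genes passing at that level was not counted. A positive log2 fold change was found for 8 members and for 51.1% of all genes tested. The median log2 fold change was 1.80 over the members and 0.01 over all genes tested. Because the members were chosen with earlier results of these data known, these shares describe the members and are no independent test of the family.

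**Figure D1:**
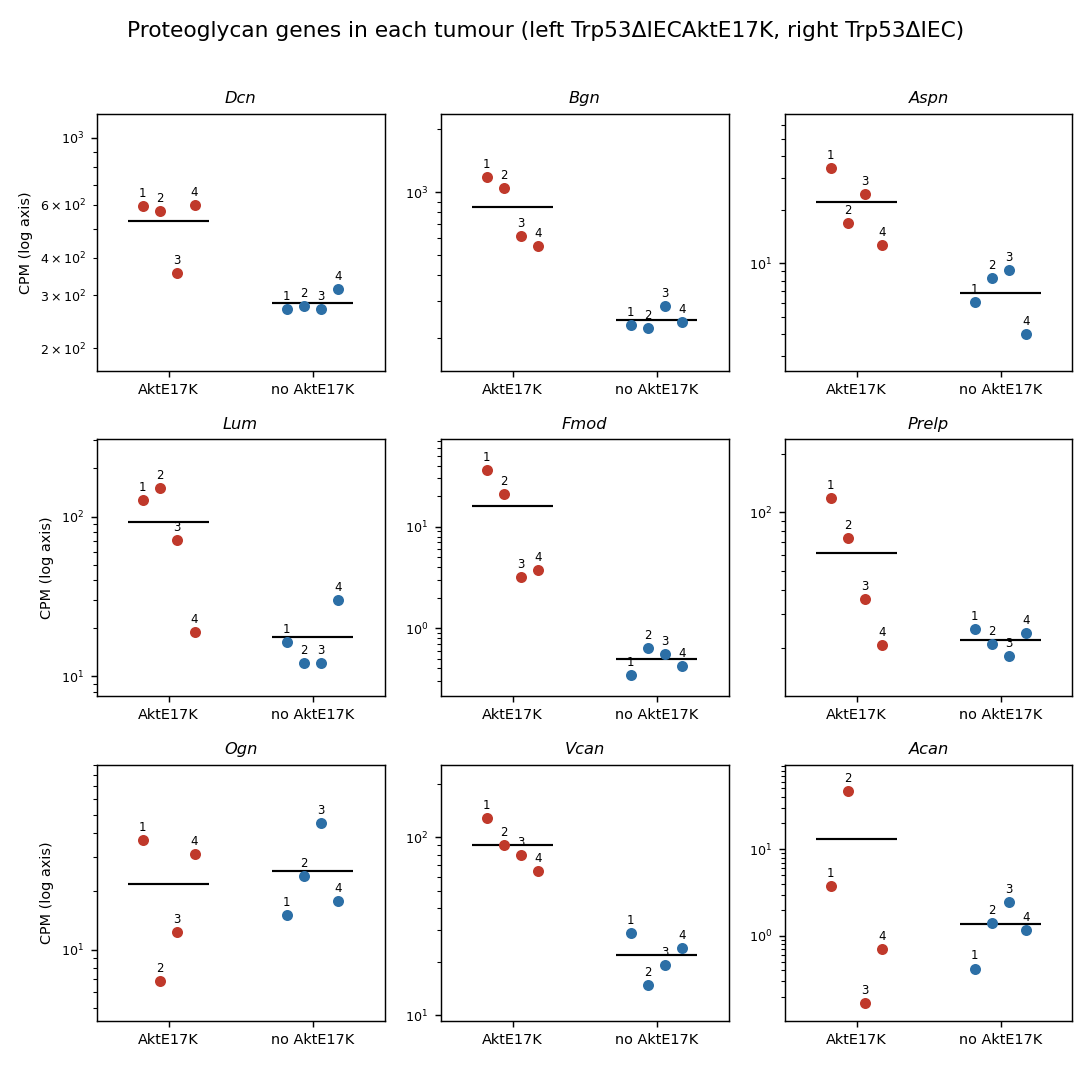
CPM (log axis) of the 9 proteoglycan genes in each tumour, with Trp53ΔIECAktE17K at the left (red) and Trp53ΔIEC at the right (blue, "no AktE17K") of each panel. Points are tumours with their replicate numbers and lines are group means. The groups do not overlap for Dcn, Bgn, Aspn, Fmod and Vcan, and Acan is high in 1 tumour of Trp53ΔIECAktE17K.

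Biglycan and decorin, the class I members with chondroitin or dermatan sulphate chains, were the most abundant per length. Bgn (ENSMUSG00000031375) had 1182, 1052, 615.3 and 553.9 CPM in Trp53ΔIECAktE17K replicates 1 to 4, against 231.4, 223.2, 284.2 and 237.9 CPM in Trp53ΔIEC replicates 1 to 4. The lowest Trp53ΔIECAktE17K tumour was still well above the highest Trp53ΔIEC tumour. Replicates 1 and 2, with the title letter A, stood above replicates 3 and 4. The means were 850.8 ± 313.0 and 244.2 ± 27.4 CPM (SD, n = 4 each), and the log2 fold change was 1.80 ± 0.27 (SE), or 3.48-fold (edgeR, adjusted p = 0.0160). Dcn (ENSMUSG00000019929) had 592.3, 573.1, 355.0 and 599.2 CPM in Trp53ΔIECAktE17K and 270.1, 277.3, 271.2 and 314.2 CPM in Trp53ΔIEC tumours. Replicate 3 of Trp53ΔIECAktE17K lay closer to the Trp53ΔIEC tumours than to the other 3 of its group, without overlap. The log2 fold change was 0.90 ± 0.18, or 1.87-fold (edgeR, adjusted p = 0.0364). Aspn (ENSMUSG00000021388), whose product asporin has an aspartate-rich stretch and is related to decorin and biglycan, was less abundant. It had 34.2, 16.9, 24.5 and 12.6 CPM in Trp53ΔIECAktE17K tumours, against 6.05, 8.23, 9.11 and 4.00 CPM in Trp53ΔIEC tumours. The groups did not overlap, and the log2 fold change was 1.69 ± 0.38, or 3.22-fold (edgeR, adjusted p = 0.0482).

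Among the class II members, Fmod passed the test and Lum and Prelp did not. Fmod (ENSMUSG00000041559), encoding fibromodulin, had 859, 511, 76 and 81 reads in Trp53ΔIECAktE17K tumours, against 9, 17, 10 and 9 reads in Trp53ΔIEC tumours. In CPM these were 36.4, 21.0, 3.19 and 3.77 in Trp53ΔIECAktE17K and 0.344, 0.639, 0.559 and 0.419 in Trp53ΔIEC tumours. Replicates 1 and 2, with the title letter A, were far above replicates 3 and 4, which were themselves above every Trp53ΔIEC tumour. The log2 fold change was 5.02 ± 0.89 (edgeR, adjusted p = 0.0261), the highest of the 9, and it came to 2.78 when only tumours with the letter B were compared. Lum (ENSMUSG00000036446), encoding lumican, had 127.0, 151.6, 71.7 and 18.9 CPM in Trp53ΔIECAktE17K tumours, against 16.5, 12.1, 12.1 and 30.1 CPM in Trp53ΔIEC tumours. Replicate 4 of Trp53ΔIECAktE17K lay within the Trp53ΔIEC range, while the other 3 lay above it. The log2 fold change of 2.38 ± 0.61 did not pass (edgeR, adjusted p = 0.0700), and without Trp53ΔIECAktE17K replicate 4 it was 2.71 (adjusted p = 0.0142). Prelp (ENSMUSG00000041577), encoding a basic leucine-rich protein that links matrix to basement membrane, had 118.4, 73.5, 35.8 and 20.8 CPM in Trp53ΔIECAktE17K tumours and 25.2, 21.0, 18.3 and 23.9 CPM in Trp53ΔIEC tumours. Its groups overlapped at Trp53ΔIECAktE17K replicate 4, and the log2 fold change of 1.49 ± 0.48 did not pass (edgeR, adjusted p = 0.128). Without that replicate Prelp passed, at 1.77 (edgeR, adjusted p = 0.0378).

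Ogn (ENSMUSG00000021390), encoding the class III member osteoglycin, was the 1 member with a negative log2 fold change. It had 36.9, 6.83, 12.3 and 31.2 CPM in Trp53ΔIECAktE17K tumours, against 15.1, 24.1, 45.4 and 17.8 CPM in Trp53ΔIEC tumours. The groups overlapped over most of their range, and the log2 fold change was -0.23 ± 0.56 (edgeR, adjusted p = 0.855), with a sign that turned when Trp53ΔIEC replicate 3 (0.17) or Trp53ΔIECAktE17K replicate 2 (0.05) was left out. The Aspn to Ogn ratio, per exon length, was 1.01, 2.70, 2.18 and 0.442 in Trp53ΔIECAktE17K tumours and 0.437, 0.373, 0.219 and 0.245 in Trp53ΔIEC tumours. These neighbouring genes thus stood in a higher ratio in every Trp53ΔIECAktE17K tumour, by a narrow margin in replicate 4. Omd, the small leucine-rich gene between them, had too few reads to be tested, with 5 reads over the Trp53ΔIECAktE17K and 14 over the Trp53ΔIEC tumours.

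Of the large hyaluronan-binding members, Vcan passed the test and Acan did not. Vcan (ENSMUSG00000021614) had 128.0, 90.7, 79.5 and 64.7 CPM in Trp53ΔIECAktE17K tumours, against 29.0, 14.9, 19.1 and 23.8 CPM in Trp53ΔIEC tumours. All 4 Trp53ΔIECAktE17K tumours lay well above the Trp53ΔIEC tumours, and replicates 1 and 2, with the title letter A, were the highest. The log2 fold change was 2.06 ± 0.27, or 4.18-fold, with the smallest adjusted p of the 9 (edgeR, adjusted p = 0.0124). Acan (ENSMUSG00000030607) had 89, 1143, 4 and 15 reads in Trp53ΔIECAktE17K tumours, or 3.77, 47.0, 0.168 and 0.699 CPM. In Trp53ΔIEC tumours it had 11, 37, 44 and 25 reads, or 0.421, 1.39, 2.46 and 1.16 CPM. A single Trp53ΔIECAktE17K tumour held most of the Acan reads, and replicate 3 lay below the Trp53ΔIEC range and replicate 4 within it. The log2 fold change was 3.26 ± 1.51 (edgeR, adjusted p = 0.266), and 0.19 without Trp53ΔIECAktE17K replicate 2.

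The calls of the 5 higher members were not equally stable when 1 tumour was left out in turn, although their direction held in each of the 8 runs. Vcan passed in 6 of 8 runs and missed without Trp53ΔIEC replicate 3 (adjusted p = 0.0563) or 4 (adjusted p = 0.0521). Bgn passed in 5 and missed without Trp53ΔIEC replicate 2 (0.0685), 3 (0.0570) or 4 (0.0675). Fmod passed in 2 runs, without Trp53ΔIECAktE17K replicate 3 (0.0197) or 4 (0.0150), and in the other 6 its adjusted p reached 0.0844. Dcn passed in 1 run, without Trp53ΔIECAktE17K replicate 3 (0.0128), and otherwise reached 0.107. Aspn passed in 1, without Trp53ΔIECAktE17K replicate 4 (0.0315), and otherwise reached 0.122. The log2 fold changes over these runs spanned 1.83 to 2.23 for Vcan, 1.58 to 1.95 for Bgn, 4.22 to 5.38 for Fmod, 0.82 to 1.06 for Dcn and 1.37 to 1.86 for Aspn. Without Trp53ΔIECAktE17K replicate 1, the tumour with the highest squamous keratins, Bgn (1.58, adjusted p = 0.0404) and Vcan (1.83, adjusted p = 0.0357) passed. With the letter B tumours alone, 2 of Trp53ΔIECAktE17K and 4 of Trp53ΔIEC, edgeR called none of the 9 and 5 had an unadjusted p under 0.05. The share of all genes at that unadjusted level was not counted for these tumours. The log2 fold changes among these tumours were 1.70 for Vcan, 1.23 for Bgn, 1.40 for Aspn, 0.72 for Dcn, 1.32 for Lum and 0.33 for Prelp.

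Levels of different genes were compared as CPM per kilobase of exon. In Trp53ΔIECAktE17K tumours the order of means was Bgn (139.5 ± 51.3), Dcn (90.8 ± 20.1), Lum (37.7 ± 24.2), Prelp (17.2 ± 12.0), Aspn (9.38 ± 4.03), Ogn (8.49 ± 5.65), Vcan (6.27 ± 1.87), Fmod (4.87 ± 4.79) and Acan (1.73 ± 3.05, all CPM per kb, SD, n = 4). In Trp53ΔIEC tumours it was Dcn (48.5 ± 3.58), Bgn (40.0 ± 4.49), Ogn (9.97 ± 5.34), Lum (7.22 ± 3.47), Prelp (6.11 ± 0.856), Aspn (2.91 ± 0.974), Vcan (1.50 ± 0.422), Acan (0.182 ± 0.113) and Fmod (0.148 ± 0.0403). Bgn and Dcn thus changed places at the top, and Ogn ranked 6 in Trp53ΔIECAktE17K and 3 in Trp53ΔIEC tumours. In Trp53ΔIECAktE17K tumours each pair of neighbours in the order other than Dcn and Lum differed by less than the larger SD of the pair. In Trp53ΔIEC tumours that held for Ogn and Lum, for Lum and Prelp, and for Acan and Fmod. Summed over the 9 genes the level was 429.1, 381.8, 222.6 and 230.1 CPM per kb in Trp53ΔIECAktE17K and 108.5, 109.1, 126.4 and 122.3 CPM per kb in Trp53ΔIEC tumours.

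As a share of that sum, Bgn made up 39.5% to 45.3% in Trp53ΔIECAktE17K and 31.9% to 36.9% in Trp53ΔIEC tumours, with no overlap. Ogn made up 0.697% to 5.28% in Trp53ΔIECAktE17K and 5.42% to 14.0% in Trp53ΔIEC tumours, also with no overlap. Dcn, at 23.6% to 44.6% in Trp53ΔIECAktE17K and 36.7% to 44.0% in Trp53ΔIEC tumours, overlapped because replicate 4 of Trp53ΔIECAktE17K held the highest Dcn share of all 8. The Bgn to Dcn ratio per length was 1.91, 1.76, 1.66 and 0.885 in Trp53ΔIECAktE17K and 0.820, 0.771, 1.00 and 0.725 in Trp53ΔIEC tumours, so 3 Trp53ΔIECAktE17K tumours stood above all others and replicate 4 did not. The Fmod to Prelp ratio was 0.336, 0.313, 0.0974 and 0.198 in Trp53ΔIECAktE17K and 0.0150, 0.0333, 0.0334 and 0.0191 in Trp53ΔIEC tumours.

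**Figure D2:**
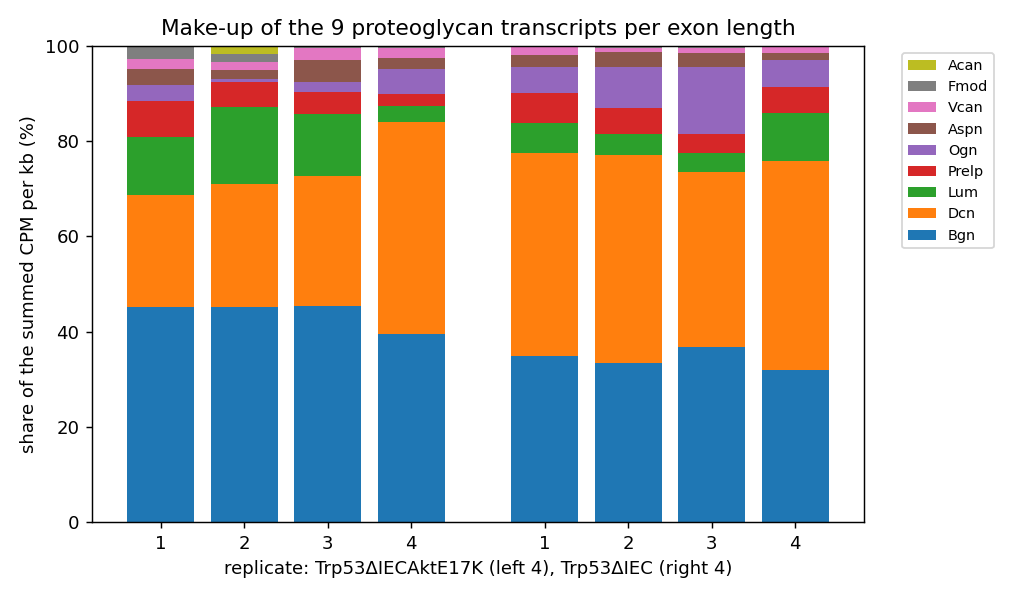
Share (%) of each of the 9 genes in their summed CPM per kb of exon, per tumour, with Trp53ΔIECAktE17K replicates 1 to 4 at the left and Trp53ΔIEC replicates 1 to 4 at the right. Bgn (39.5% to 45.3% in Trp53ΔIECAktE17K and 31.9% to 36.9% in Trp53ΔIEC) took a larger share in the Trp53ΔIECAktE17K tumours and Ogn (0.697% to 5.28% in Trp53ΔIECAktE17K and 5.42% to 14.0% in Trp53ΔIEC) a smaller one.

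Several stromal and squamous marker genes were called higher in Trp53ΔIECAktE17K tumours. Over all genes tested 3.44% were called higher, and in 8.34% every Trp53ΔIECAktE17K tumour lay above every Trp53ΔIEC tumour. The summed level of 10 fibroblast markers was 6146 to 9453 CPM in Trp53ΔIECAktE17K and 2655 to 4705 CPM in Trp53ΔIEC tumours, and 5 of 10 were called higher. The matrix genes Col1a1, Col1a2, Col3a1, Fn1 and Sparc held most of that sum in every tumour. The collagens among them are the genes used for scaling below. Within the fibroblast list Pdgfra, a receptor of mesenchymal cells, had 45.9 to 123.5 CPM in Trp53ΔIECAktE17K and 77.0 to 193.5 CPM in Trp53ΔIEC tumours and was not called. Dpt overlapped, at 12.6 to 45.1 CPM in Trp53ΔIECAktE17K and 15.3 to 22.2 CPM in Trp53ΔIEC tumours, and was not called either. Smooth muscle markers summed to 1143 to 1860 CPM in Trp53ΔIECAktE17K and 315.8 to 508.5 CPM in Trp53ΔIEC tumours (8 of 10 called higher), and pericyte markers to 229.8 to 545.7 CPM in Trp53ΔIECAktE17K and 142.0 to 217.8 CPM in Trp53ΔIEC tumours (5 of 8). Cardiac muscle markers also stood apart, at 149.8 to 215.4 CPM in Trp53ΔIECAktE17K and 37.6 to 115.9 CPM in Trp53ΔIEC tumours (7 of 9 tested called higher). Squamous epithelium markers had the largest median log2 fold change of the 12 marker lists, 7.03, and 5 of 9 tested were called higher. They summed to 17037, 662.7, 200.9 and 2757 CPM in Trp53ΔIECAktE17K and 81.7 to 237.0 CPM in Trp53ΔIEC tumours, so that Trp53ΔIECAktE17K replicate 3 lay within the range of the other group. Cartilage markers, which bear on Acan and Fmod, summed to 39.4 to 65.1 CPM in Trp53ΔIECAktE17K and 16.0 to 45.8 CPM in Trp53ΔIEC tumours, with 1 of 6 tested called higher (Comp). Of these 6, 5 had a positive log2 fold change. Col2a1 had 16.8, 8.97, 2.18 and 0.373 CPM in Trp53ΔIECAktE17K and 0.186 to 0.689 CPM in Trp53ΔIEC tumours (log2 fold change 4.26, edgeR, adjusted p = 0.0713). Matn1 (2 reads over the Trp53ΔIECAktE17K and 7 over the Trp53ΔIEC tumours) and Ucma (1 read over the Trp53ΔIECAktE17K and 2 over the Trp53ΔIEC tumours) were at or near 0 and were not tested. Macrophage markers overlapped, at 473.5 to 1371 CPM in Trp53ΔIECAktE17K and 554.1 to 1202 CPM in Trp53ΔIEC tumours, with 0 of 9 called by edgeR and 1 at an unadjusted p under 0.05. In the remaining marker lists 1 of 10 blood endothelium, 1 of 4 mesothelium and 1 of 5 enteric glia genes tested were called higher. Of 10 epithelium genes 0 were called, and of 8 hepatocyte genes tested 1 was called lower. In bulk tissue more cells of a type and more RNA per cell cannot be told apart, and the part of these marker shifts in the proteoglycan levels was not tested beyond the collagen scaling below.

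To set the proteoglycans against the fibrillar collagen of the same tumour, the summed reads of Col1a1, Col1a2 and Col3a1 were used in place of the library size. That sum was 5789, 5813, 3605 and 3775 CPM in Trp53ΔIECAktE17K and 2836, 1785, 2186 and 2478 CPM in Trp53ΔIEC tumours, a log2 difference of 1.02. On this scale the median of all genes tested was -0.98, 53% of genes were called lower and 2.61% higher, or 55.6% in either direction. Relative to collagen I and III, 3 of the 9 members were called higher in Trp53ΔIECAktE17K tumours (Lum, Fmod and Vcan) and 0 lower. An unadjusted p under 0.05 was found in edgeR for 4, a level that at least 55.6% of all genes passed on this scale. The members' median was 0.70. Because most genes differ on this scale, an adjusted p lies closer to the unadjusted one than in the library-scaled fit. The share of all genes whose groups do not overlap on this scale was not counted. A lack of overlap below therefore describes the named member only.

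Vcan reads were 2.21%, 1.56%, 2.20% and 1.71% of the collagen reads in Trp53ΔIECAktE17K tumours, against 1.02%, 0.834%, 0.874% and 0.961% in Trp53ΔIEC tumours. The groups did not overlap, and the log2 fold change relative to collagen was 1.06 ± 0.28 (edgeR, adjusted p = 0.0114). Fmod reads were 0.628%, 0.362%, 0.0885% and 0.0999% in Trp53ΔIECAktE17K tumours, against 0.0121%, 0.0358%, 0.0256% and 0.0169% in Trp53ΔIEC tumours, again with no overlap (3.71 ± 0.71, edgeR, adjusted p = 0.00772). Both passed in each of the 8 runs with 1 tumour left out. With the title letter as a term neither passed (Vcan 1.08 and Fmod 2.07, edgeR, adjusted p = 0.0617 for each), nor did they with the letter B tumours alone (adjusted p = 0.104 for each). Lum had a log2 fold change of 1.27 ± 0.46 relative to collagen (edgeR, adjusted p = 0.0352), with overlapping groups, and passed in 2 of these runs, without Trp53ΔIECAktE17K replicate 4 (0.00564) or Trp53ΔIEC replicate 4 (0.0257), reaching 0.0995 in the other 6.

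Bgn kept its groups apart on this scale and Dcn did not. Bgn reads were 20.4%, 18.1%, 17.1% and 14.7% of the collagen reads in Trp53ΔIECAktE17K tumours, against 8.16%, 12.5%, 13.0% and 9.60% in Trp53ΔIEC tumours. Its groups did not overlap, but the log2 fold change of 0.70 ± 0.29 missed the threshold (edgeR, adjusted p = 0.0516). Dcn reads were 10.2%, 9.86%, 9.85% and 15.9% in Trp53ΔIECAktE17K and 9.52%, 15.5%, 12.4% and 12.7% in Trp53ΔIEC tumours, which overlapped widely. Its log2 fold change was -0.13 ± 0.30 (edgeR, adjusted p = 0.708). Both values depended on the collagen used: relative to the collagen VI genes the log2 fold change was 0.73 for Dcn (edgeR, adjusted p = 0.444), the opposite direction, and 1.61 for Bgn (adjusted p = 0.0188). Aspn (0.60 ± 0.44, adjusted p = 0.239), Prelp (0.33 ± 0.37, 0.440), Acan (1.85 ± 1.46, 0.292) and Ogn (-1.28 ± 0.60, 0.0889) did not pass in edgeR relative to collagen.

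**Figure D3:**
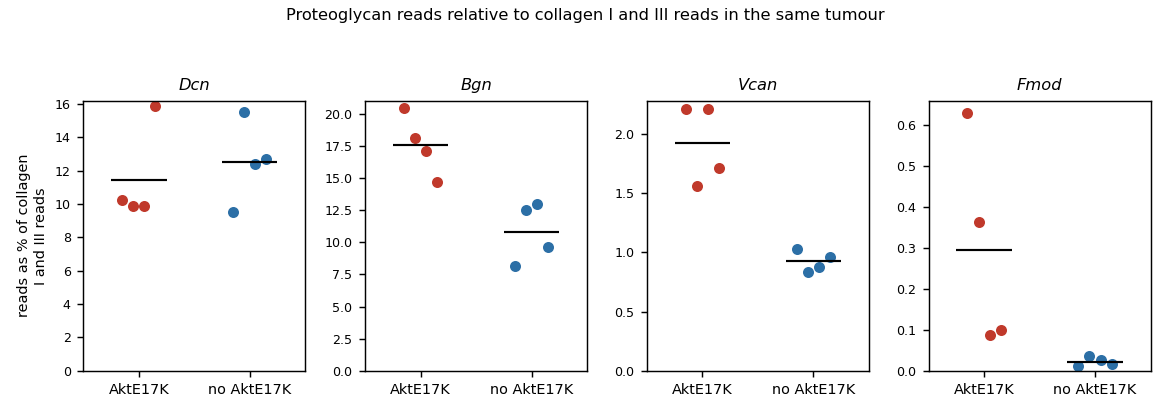
Reads of Dcn, Bgn, Vcan and Fmod as a percentage of the summed Col1a1, Col1a2 and Col3a1 reads of the same tumour, with Trp53ΔIECAktE17K at the left (red) and Trp53ΔIEC ("no AktE17K", blue) at the right of each panel, points for tumours and lines for group means. The groups overlap for Dcn and do not for Bgn, Vcan and Fmod. The share of all genes without overlap on this scale was not counted.

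**Figure D4:**
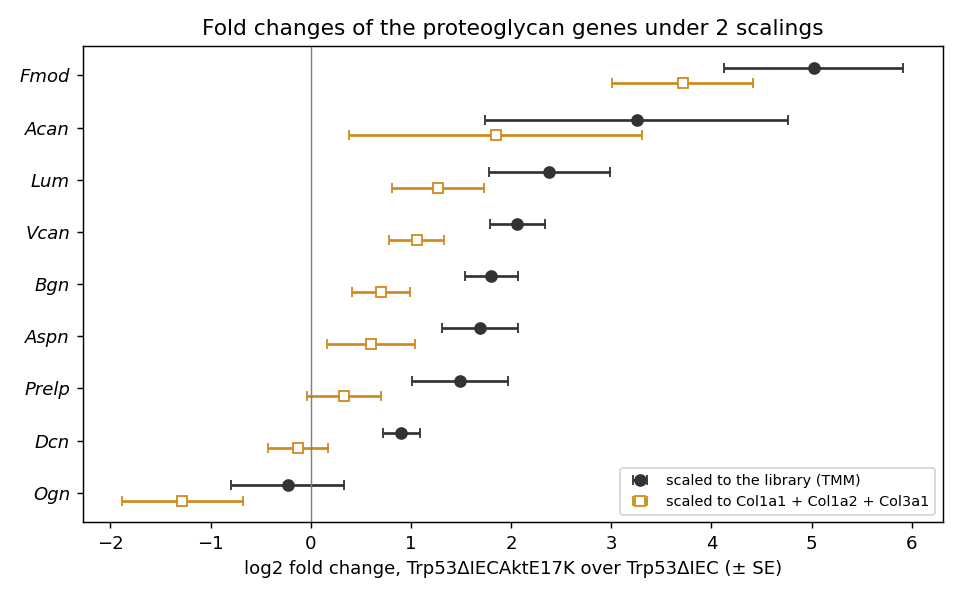
Log2 fold change of each proteoglycan gene, Trp53ΔIECAktE17K over Trp53ΔIEC (points, ± SE, 4 tumours per group), scaled to the library (filled circles) and to collagen I and III reads (open squares). Dcn lies at 0.90 and -0.13 on these scales, Vcan at 2.06 and 1.06, and Fmod at 5.02 and 3.71.

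The other genes of proteoglycan biology were looked at in 9 lists holding 142 genes, of which 127 were tested. Of these 16 were called higher and 1 lower, 89 had a positive log2 fold change, and the median was 0.34. Over all genes tested 3.44% were called higher, 0.756% lower, 51.1% had a positive log2 fold change and the median was 0.01. Where a list below holds 1 or 2 calls, the calls describe those genes and not the list. With the title letter as a term, or with the letter B tumours alone, edgeR called 0 of the 127, and with 1 tumour left out the calls numbered 0 to 23. The collagens had the largest share of calls, 5 of 11 tested with a median of 1.17, and these were Col1a1, Col1a2, Col5a1, Col5a2 and Col12a1. That count was 0 without Trp53ΔIEC replicate 2, 3 or 4 or without Trp53ΔIECAktE17K replicate 1, 1 without Trp53ΔIECAktE17K replicate 2, 3 without Trp53ΔIEC replicate 1, and 5 without Trp53ΔIECAktE17K replicate 3 or 4. Col1a1 had 1847 ± 472 CPM in Trp53ΔIECAktE17K and 711.4 ± 262.5 CPM in Trp53ΔIEC tumours (log2 fold change 1.38, edgeR, adjusted p = 0.0419), and Col12a1, a fibril-associated collagen, had 281.0 ± 94.7 CPM in Trp53ΔIECAktE17K and 78.7 ± 25.2 CPM in Trp53ΔIEC tumours (1.83, adjusted p = 0.0215). Col3a1 did not pass, with 1632 ± 411 CPM in Trp53ΔIECAktE17K and 1064 ± 155 CPM in Trp53ΔIEC tumours (0.62, adjusted p = 0.138). The collagen VI genes Col6a1, Col6a2 and Col6a3, which biglycan and decorin bind, had log2 fold changes of 0.16, 0.02 and 0.08 and were not called.

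Among proteases that cleave these core proteins 3 of 16 tested were called higher and 0 lower, with a median of 0.89. Adamts5, a principal aggrecanase that also cleaves versican, had 6.21 ± 1.98 CPM in Trp53ΔIECAktE17K and 1.40 ± 0.485 CPM in Trp53ΔIEC tumours (log2 fold change 2.14, edgeR, adjusted p = 0.0247). Mmp3, stromelysin 1, had 62.0 to 151.7 CPM in Trp53ΔIECAktE17K tumours, against 1.40 to 15.8 CPM in Trp53ΔIEC tumours. Each of the Trp53ΔIECAktE17K tumours lay well above the other group (3.82, adjusted p = 0.0285). Adamts8 had 2.62 ± 1.24 CPM in Trp53ΔIECAktE17K and 0.484 ± 0.279 CPM in Trp53ΔIEC tumours (2.41, adjusted p = 0.0447). Of the 8 runs with 1 tumour left out, Mmp3 passed in 3, Adamts5 in 2 and Adamts8 in 1, and their adjusted p values reached 0.0870, 0.0819 and 0.129 in edgeR.

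In the synthesis of chondroitin and dermatan sulphate, the chains of decorin, biglycan and versican, 2 of 25 tested genes were called higher and 0 lower, with a median of 0.47. Csgalnact1, which starts the chondroitin chain, had 17.9, 16.3, 54.6 and 8.99 CPM in Trp53ΔIECAktE17K tumours, against 2.41, 1.99, 1.12 and 2.19 CPM in Trp53ΔIEC tumours. The groups did not overlap, and replicate 3 was the highest (log2 fold change 3.66, edgeR, adjusted p = 0.0211). Ust, a uronyl 2-O-sulphotransferase, had 7.96 ± 6.44 CPM in Trp53ΔIECAktE17K and 1.37 ± 0.185 CPM in Trp53ΔIEC tumours (2.54, adjusted p = 0.0442). Csgalnact1 passed in 4 of the 8 runs with 1 tumour left out and Ust in 2, with adjusted p values in edgeR of up to 0.0773 for Csgalnact1 and 0.124 for Ust. Of 9 tested genes of keratan sulphate synthesis, the chains of lumican and fibromodulin, edgeR, DESeq2 and limma-voom each called 0, and 0 had an unadjusted p under 0.05 in edgeR. The nearest to it were the galactosyltransferase B4galt1 (log2 fold change -0.32, adjusted p = 0.464) and the sialyltransferase St3gal1 (0.18, adjusted p = 0.615).

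The hyaluronan genes, whose products carry versican and aggrecan, gave 1 call of 10 for synthesis and breakdown and 1 of 8 for binding partners. Has2, a hyaluronan synthase, had 12.5 ± 7.18 CPM in Trp53ΔIECAktE17K and 2.87 ± 1.06 CPM in Trp53ΔIEC tumours (log2 fold change 2.12, edgeR, adjusted p = 0.0486). That call passed in 1 of the 8 runs with 1 tumour left out, without Trp53ΔIECAktE17K replicate 4 (adjusted p = 0.0270), and otherwise reached 0.129. Tnfaip6, which transfers heavy chains onto hyaluronan, had 2.84 ± 0.626 CPM in Trp53ΔIECAktE17K and 0.966 ± 0.314 CPM in Trp53ΔIEC tumours (1.55, adjusted p = 0.0472), and that call was lost in each of the 8 runs with 1 tumour left out, at adjusted p values of 0.0510 to 0.125. Cd44, the main hyaluronan receptor, was not called, with a log2 fold change of -0.24 and an adjusted p of 0.505 in edgeR.

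Among membrane and other proteoglycans 2 of 21 were called higher. Gpc3, a glypican, had 18.6, 11.0, 15.9 and 7.82 CPM in Trp53ΔIECAktE17K tumours, against 0.689, 1.47, 0.503 and 0.279 CPM in Trp53ΔIEC tumours. No Trp53ΔIEC tumour came near the lowest Trp53ΔIECAktE17K tumour (log2 fold change 4.16, edgeR, adjusted p = 0.0132). Tgfbr3, betaglycan, had 16.4 ± 4.46 CPM in Trp53ΔIECAktE17K and 5.11 ± 1.65 CPM in Trp53ΔIEC tumours (1.68, adjusted p = 0.0263). Of 8 other small leucine-rich genes tested, 1 was called, Optc, encoding opticin, at 1.44 ± 0.582 CPM in Trp53ΔIECAktE17K and 0.256 ± 0.0716 CPM in Trp53ΔIEC tumours (2.46, adjusted p = 0.0229). Gpc3 missed in 1 of the 8 runs with 1 tumour left out, without Trp53ΔIEC replicate 3 (edgeR, adjusted p = 0.0563), while Tgfbr3 and Optc each passed in 3 and reached adjusted p values of 0.0870 and 0.0777. Optc lies 2305 bases from Prelp.

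Of 19 tested signalling partners 1 was called higher and 1 lower. Lrp1, an endocytic receptor of decorin, had 238.8 ± 54.5 CPM in Trp53ΔIECAktE17K and 112.5 ± 24.0 CPM in Trp53ΔIEC tumours (log2 fold change 1.09, edgeR, adjusted p = 0.0356), and passed in 2 of the 8 runs with 1 tumour left out, without Trp53ΔIECAktE17K replicate 3 or 4, with adjusted p values of up to 0.107 in the others. Tlr2, through which soluble biglycan signals in macrophages, was lower, at 56.2, 46.5, 77.8 and 59.1 CPM in Trp53ΔIECAktE17K tumours, against 114.5, 135.1, 183.4 and 89.2 CPM in Trp53ΔIEC tumours. The groups did not overlap (-1.12, edgeR, adjusted p = 0.0439), but the call passed in 1 of the 8 runs, without Trp53ΔIECAktE17K replicate 3 (adjusted p = 0.0382), and otherwise reached 0.114. Tlr4, the other such receptor, had a log2 fold change of -0.83 and was not called (adjusted p = 0.253).

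**Figure D5:**
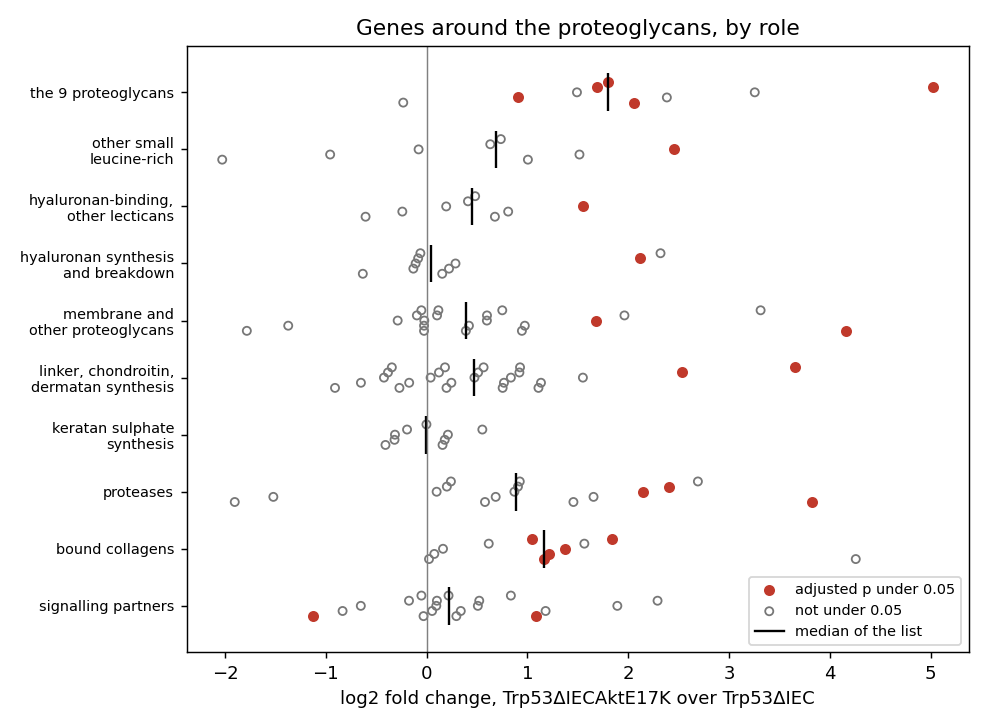
Log2 fold change, Trp53ΔIECAktE17K over Trp53ΔIEC, of the 9 proteoglycan genes (top) and of the tested genes of 9 lists around them. Points are genes, filled at an adjusted p under 0.05, and bars are list medians, which run from 1.80 for the 9 proteoglycans and 1.17 for the bound collagens to 0.00 for keratan sulphate synthesis.

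The members' mean pattern over the 8 tumours, on centred log2 CPM, was closest to that of Cacna2d1 among the other genes with at least 1 CPM on average, with a root mean square difference of 0.176 log2 units over the 8 tumours. Ephb1 (0.223), Lsp1 (0.227), Mrc2 (0.239) and Fgd5 (0.243) followed. Cacna2d1 encodes an auxiliary subunit of calcium channels and Mrc2 an endocytic collagen receptor, Ephb1 a receptor tyrosine kinase, Lsp1 an actin-binding protein of leukocytes and Fgd5 an exchange factor of endothelium. Of the members themselves Bgn lay nearest to the mean pattern (0.226) and Acan farthest (1.69). Mrc2 had 75.4, 64.9, 33.7 and 37.6 CPM in Trp53ΔIECAktE17K tumours, against 13.8, 14.7, 22.7 and 13.6 CPM in Trp53ΔIEC tumours, with replicates 1 and 2 of Trp53ΔIECAktE17K the highest. These genes were picked for their nearness to the members' pattern, so a likeness to Bgn follows from the choice and is no separate result.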

How the data were processed

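Bulk RNA was sequenced from 4 tumours of each genotype, each from its own mouse. The library kit was TruSeq mRNA version v2, per the labels' protocols, a poly(A) selection without strand information. The authors deposited raw read counts per Ensembl gene. The submitters' processing notes list DESeq2 1.8.1, HTSeq 0.6, SAMtools 1.2, STAR 2.3.0, CASAVA 1.8.2 and build mm10, with no role for any. Which annotation was counted is not given in the sources used here. The 5 closing lines of unassigned reads were set aside: reads in no feature were 9.74% to 11.7% and ambiguous reads 1.93% to 2.32%. Reads with several alignments are not counted for any gene. Symbols, positions and exon lengths came from GENCODE M21, which held 36602 of the 38355 identifiers.

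Counts were tested with edgeR 4.0.16 (R 4.3.3; filterByExpr with a minimum count of 10, TMM, robust quasi-likelihood fit, group as the term), with Benjamini-Hochberg adjustment over the 16539 genes tested and a threshold of 0.05. SE is the log2 fold change divided by the root of F. The second fit replaced the library size by the summed collagen I and III counts. Alternatives were RLE size factors, library totals, no filter, no robust step, DESeq2 1.42.0, limma-voom (limma 3.58.1), the replicate number as a block, the title letter as a term, letter B tumours alone, a collagen VI offset and leaving out each tumour. Scripts were tested on simulated counts. Genes named in the text are the members, the offset genes, up to 4 called genes per list with the smallest adjusted p (2 by unadjusted p where none was called) and the 5 genes nearest to the members' mean pattern. Other genes named with values fall outside that rule. They are Trp53, Akt1, the marker genes, Cd44, Tlr4, Omd, the collagen VI genes, Chad, Hapln1, Hapln3, Hapln4, Kera, Epyc and Nyx. The members and lists were chosen with earlier results of these data known. SD and p-values measure the spread between tumours of separate mice.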

Additional observations from a re-analysis of the deposited data

Results flagged for a closer look

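In 66 groups of 4 tumours, from 33 genes, 4 values lay far from the other 3 tumours of their group by Dixon's criterion, where chance gives about 1 in 20 groups, or 3.3. Acan had 47.0 CPM in Trp53ΔIECAktE17K replicate 2, against 0.168 to 3.77 CPM in the other 3 tumours of that group. Dcn had 355.0 CPM in Trp53ΔIECAktE17K replicate 3, below the 573.1 to 599.2 CPM of the other 3. Dcn also had 314.2 CPM in Trp53ΔIEC replicate 4, above the 270.1 to 277.3 CPM of the other 3. Mrc2, the collagen receptor gene with a pattern close to that of the members, had 22.7 CPM in Trp53ΔIEC replicate 3, above 13.6 to 14.7 CPM in the other 3.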

How the results depend on the processing

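With 4 tumours per group, the number of proteoglycan genes called (5) was 7 with DESeq2, 3 with limma-voom, 2 with the title letter as a term, 0 with letter B tumours alone and 0 to 6 with 1 tumour left out, while RLE size factors, library totals, no filter and no robust step gave 4 or 5. Over all genes the 694 calls became 2169 with DESeq2, 96 with the letter term, 26 with letter B tumours and 74 to 949 with 1 tumour left out. The 17 calls in the related lists became 31 with DESeq2, 0 with the letter term, 0 with letter B tumours and 0 to 23 with 1 tumour left out. Relative to collagen I and III, the 3 members called became 0 with the letter term, 0 with letter B tumours and 2 to 5 with 1 tumour left out. The cause of these shifts was not tested.

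Replicate numbers are shared between the genotypes, and the labels state no pairing of the tumours. Same-numbered tumours correlated at -0.25 to 0.01 in their deviations, and not every tumour correlated best with its own number. With so few tumours these correlations cannot exclude a pairing. With the number as a block, 1 member (Vcan), 50 genes and 0 genes of the related lists were called, and 3 members relative to collagen.

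Among the members, directions turned only for values that were not called. Acan became -1.64 with the letter term and -1.67 with letter B tumours, and relative to collagen -2.42 in both, and -1.06 to 2.28 with 1 tumour left out, the lowest without Trp53ΔIECAktE17K replicate 2. Dcn relative to collagen became 0.037 in both letter settings and 0.73 with a collagen VI offset. Prelp relative to collagen became -0.32 in both letter settings and -0.044 to 0.57 with 1 tumour left out, the lowest without Trp53ΔIECAktE17K replicate 1. Ogn ran from -0.64 to 0.17 with 1 tumour left out, the highest without Trp53ΔIEC replicate 3, and was 0.050 without Trp53ΔIECAktE17K replicate 2. Low counts limit Acan (4 to 44 reads in 6 of 8 tumours) and Fmod in Trp53ΔIEC (9 to 17 reads). DESeq2 gave no p for Acan.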

Other observations

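Read counts of several relatives of the members, by tumour, were as follows. Chad, which encodes chondroadherin, a leucine-rich cartilage protein, had 195, 603, 32 and 91 reads in Trp53ΔIECAktE17K and 67, 177, 52 and 29 reads in Trp53ΔIEC tumours. Hapln4, which encodes a hyaluronan link protein, had 48, 269, 66 and 27 reads in Trp53ΔIECAktE17K and 77, 133, 33 and 19 reads in Trp53ΔIEC tumours. In both genes Trp53ΔIECAktE17K replicate 2, the tumour with 1143 Acan reads, was the highest of the 8. The other tested link protein genes were divided. In that tumour Hapln3, with 66 reads, was also the highest of the 8, but Hapln1, with 5 reads, was the lowest. Hapln1 had 107, 5, 11 and 112 reads in Trp53ΔIECAktE17K and 36, 37, 33 and 61 reads in Trp53ΔIEC tumours. Kera, the keratocan gene beyond Lum on chromosome 10, had 30 of its 34 reads over the Trp53ΔIECAktE17K tumours in replicate 4, and 1 read over the Trp53ΔIEC tumours. Epyc, next to Kera, had 8, 4, 13 and 2 reads in Trp53ΔIECAktE17K tumours and 0 reads over the Trp53ΔIEC tumours. Nyx, which encodes nyctalopin, had 331 of its 415 reads over the Trp53ΔIEC tumours in replicate 1, and 93 reads over the Trp53ΔIECAktE17K tumours. These genes were singled out after their values were seen and carry no call.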
